A study of Homo sapiens with 5 samples.

Results

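The cytosolic ribosomal protein genes were examined in 501Mel melanoma cells and Hermes 3A melanocytes after shRNA-mediated silencing of BPTF. Members were the protein-coding genes whose GENCODE 29 symbol is RPL or RPS followed by a number, with or without a letter A, L or X, together with RPLP0, RPLP1, RPLP2 and RPSA. The rule used names and no measured value, and left out the kinases of the RPS6K family. It gave 82 genes, 50 of the large and 32 of the small subunit, on 21 chromosomes, out of 40263 genes listed for at least 1 of the cell lines. Of the 82 genes, 81 were listed for both lines and 79 had enough counts to be tested.

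Each cytosolic ribosome is built from a small subunit, which decodes the mRNA, and a large subunit, which joins amino acids and guides the new chain through an exit tunnel. Most of its proteins are needed in 1 copy per ribosome, so that their genes are among the most strongly and most evenly expressed of the cell. Their mRNAs typically begin with a C followed by a run of pyrimidines, the 5′ terminal oligopyrimidine tract, through which mTOR signalling and the protein LARP1 control their translation. Nearly all of these genes have left processed pseudogenes in the genome, which are intronless copies that can match reads of the parent gene. When ribosome assembly is disturbed, free RPL5 and RPL11 bind the ubiquitin ligase MDM2 together with 5S rRNA.

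Both groups had received shBPTF lentiviral vectors (2 shRNA constructs are given for BPTF, and the labels do not say which was used in which library) and were then selected with puromycin, at 3 µg/ml over 5 days. The 501Mel shBPTF group held 2 libraries and the Hermes 3A shBPTF group 3. 501Mel is a human melanoma cell line kept in RPMI 1640 with foetal calf serum. Hermes 3A is an immortalized line of human melanocytes, whose medium also contained TPA, cholera toxin, stem cell factor and endothelin-1, so that the cell line and its medium cannot be told apart. No shControl counts were analysed here, and no effect of BPTF silencing itself is given. BPTF had 2832 and 2189 counts (66.1 and 58.2 CPM) in 501Mel cells against 1906, 2110 and 1628 (45.8, 51.7 and 54.2 CPM) in Hermes 3A cells, with a log2 fold change of 0.23 ± 0.14 (SE) that did not pass (edgeR adjusted p = 0.208). CPM are counts scaled to the library's total on genes listed for both lines, times 1e+06.

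The libraries held between 30073071 and 43032311 counts, and 3 counts corresponded to between 0.0700 and 0.0999 CPM, which covers counting error only. The labels do not say that replicates came from separate cultures, and p-values then measure only the spread between these libraries. There were 37259 genes listed for 501Mel cells and 34033 for Hermes 3A cells, with 31029 in both, so that the 2 lines were counted on different gene lists. The mitochondrial genome took 6.14% and 6.74% of the counts in 501Mel libraries and 3.26%, 2.85% and 2.75% in those of Hermes 3A. Of 7 melanocyte markers, DCT was higher and PMEL, MLANA, TYR and SOX10 lower in 501Mel cells, where 1 was lower without 501Mel replicate 1, and none of the 7 was at 0 in a library. Of 6 keratinocyte markers 3 were listed for both lines, and these summed to between 33.1 and 34.5 CPM in 501Mel cells and between 44.0 and 48.2 CPM in Hermes 3A cells, nearly all of it KRT10. The 6 fibroblast markers summed to between 2.08 and 10.9 CPM in 501Mel cells and between 71.3 and 189 CPM in Hermes 3A cells, where nearly all of it was COL1A2. COL3A1 and PDGFRB were each at 0 in 1 Hermes 3A library. Of 5 tested, only COL1A2 was called, as lower in 501Mel cells. COL1A1, COL3A1 and PDGFRA had higher means in 501Mel cells and PDGFRB a lower one, and these 4 did not pass. The part of these differences in the results was not tested, and in bulk RNA fewer cells of a type and less RNA per cell cannot be told apart.

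The start of transcription of 8 members is shown because it carries the sequence by which most of the family is recognised, and because these genes stand at the ends and in the middle of the range described next. Each line gives 30 bases of RefSeq sequence (build GRCh38.p14), from 10 bases before the annotated start base to 19 after it, and capitals mark the unbroken run of C and T that holds the start base.
RPS27L (chr15:63157458-63157487, minus strand): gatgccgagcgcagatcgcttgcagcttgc
RPS28 (chr19:8321486-8321515, plus strand): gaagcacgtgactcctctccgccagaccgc
RPS27 (chr1:153990752-153990781, plus strand): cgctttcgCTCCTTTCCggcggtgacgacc
RPS19 (chr19:41860245-41860274, plus strand): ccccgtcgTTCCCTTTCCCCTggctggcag
RPLP0 (chr12:120201092-120201121, minus strand): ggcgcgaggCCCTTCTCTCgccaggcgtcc
RPL39 (chrX:119791611-119791640, minus strand): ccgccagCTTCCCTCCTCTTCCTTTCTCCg
RPL3 (chr22:39319604-39319633, minus strand): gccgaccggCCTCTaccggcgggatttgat
RPL26 (chr17:8383174-8383203, minus strand): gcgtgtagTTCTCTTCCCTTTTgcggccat
RPS27 starts with a C inside a run of pyrimidines, whereas its paralogue RPS27L has no C or T at the annotated start. RPS19, RPLP0, RPL39 and RPL26 also start with a C inside a long run. RPL3 has a short run, and RPS28 starts with a base other than C or T, which a run of 9 bases of C or T follows.

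Promoter entries were found for 65 of the 82 members. Of these, 42 (64.6%) had a C at the annotated start followed by at least 4 bases of C or T, against 4.07% of all 35116 promoters in the RefSeq table. A run of at least 6 such bases that began with C within 10 bases of the start was present in 51 members (78.5%) and in 20.8% of all promoters. Within the 300 bases of each entry (250 before and 50 after the start) the letters CCGGAAG, a form of the binding motif of ETS factors, stood on either strand in 22 members (33.8%) and in 10.3% of all promoters. AAGATGGC, which resembles the motif of YY1, stood on either strand in 6 members (9.23%) and in 2.89% of all promoters. The E-box CACGTG, a motif of MITF and of MYC, was found in 3 members (4.62%) and in 7.26% of all promoters, the 3 being RPL13A, RPL19 and RPS28. CATGTG, the other E-box bound by MITF, was found in 4 members (6.15%) and in 11.1% of all promoters. CCGGAAG and AAGATGGC can share the letters AAG, all 4 motifs were searched on both strands, and a match is a description of the sequence only.

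The question of the comparison was whether the melanoma line and the melanocyte line differ in ribosomal protein gene expression when BPTF is silenced in both. As a group they took between 3.03% and 3.59% of every library. Members made up 3.59% and 3.26% of the counts of 501Mel libraries and 3.28%, 3.03% and 3.36% of those of Hermes 3A, or 3.42% ± 0.238 (SD, n = 2) and 3.22% ± 0.171 (SD, n = 3). The ranges overlapped, and the difference of 0.200 percentage points gave p = 0.6 in an exact two-sided permutation test, in which the smallest p that 2 against 3 libraries allow is 0.2. Large subunit genes took 2.06% ± 0.125 of the counts in 501Mel libraries and 1.97% ± 0.1001 in those of Hermes 3A, and small subunit genes 1.37% ± 0.113 and 1.26% ± 0.0713. These libraries were treated with duplex-specific nuclease, which lowers abundant sequences, and the shares are therefore those of the treated libraries.

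Single genes differed within this share. In edgeR's quasi-likelihood test with Benjamini-Hochberg adjustment over all 17975 genes tested, 26 of the 79 members (32.9%) passed an adjusted p of 0.05, 15 of them higher and 11 lower in 501Mel cells, and 53 did not pass. Of all genes tested, 48.2% passed, 24.2% higher and 24.0% lower. The median log2 fold change (501Mel minus Hermes 3A throughout) was 0.01 over members and 0.02 over all genes. The median size of the log2 fold change was 0.33 over members and 0.79 over all genes, and 67.1% of members but 35.2% of all genes lay within 0.5 on the log2 scale. Level was also taken into account. At 100 CPM or more, 21 of 68 members (30.9%) were called, with a median size of 0.32 and 72.1% within 0.5, whereas of 2497 genes at this level 55.9% were called, with a median size of 0.56 and 45.5% within 0.5. The part of the duplex-specific nuclease treatment in these sizes was not tested. The large subunit had 8 members higher and 7 lower of 48 tested, and the small subunit 7 higher and 4 lower of 31. The libraries of the lines did not overlap for 55 of the 79 members, where 69.8% of all genes tested did not, with 501Mel above for 31 members (38.1% of all genes) and below for 24 (31.7%).

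**Figure D1:**
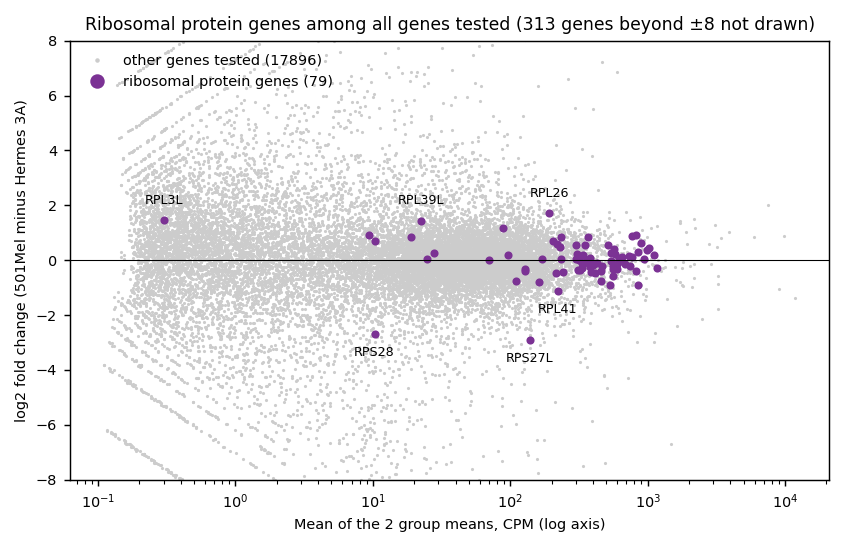
Log2 fold change between 501Mel and Hermes 3A cells (vertical axis) against the mean of the group means in CPM (horizontal log axis) for all 17975 genes tested, with the 79 ribosomal protein genes in purple. Most members lie at high levels close to 0, and RPS27L, RPS28, RPL41, RPL26, RPL39L and RPL3L stand apart. The axis ends at 8 on the log2 scale, which leaves 313 genes undrawn.

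**Figure D2:**
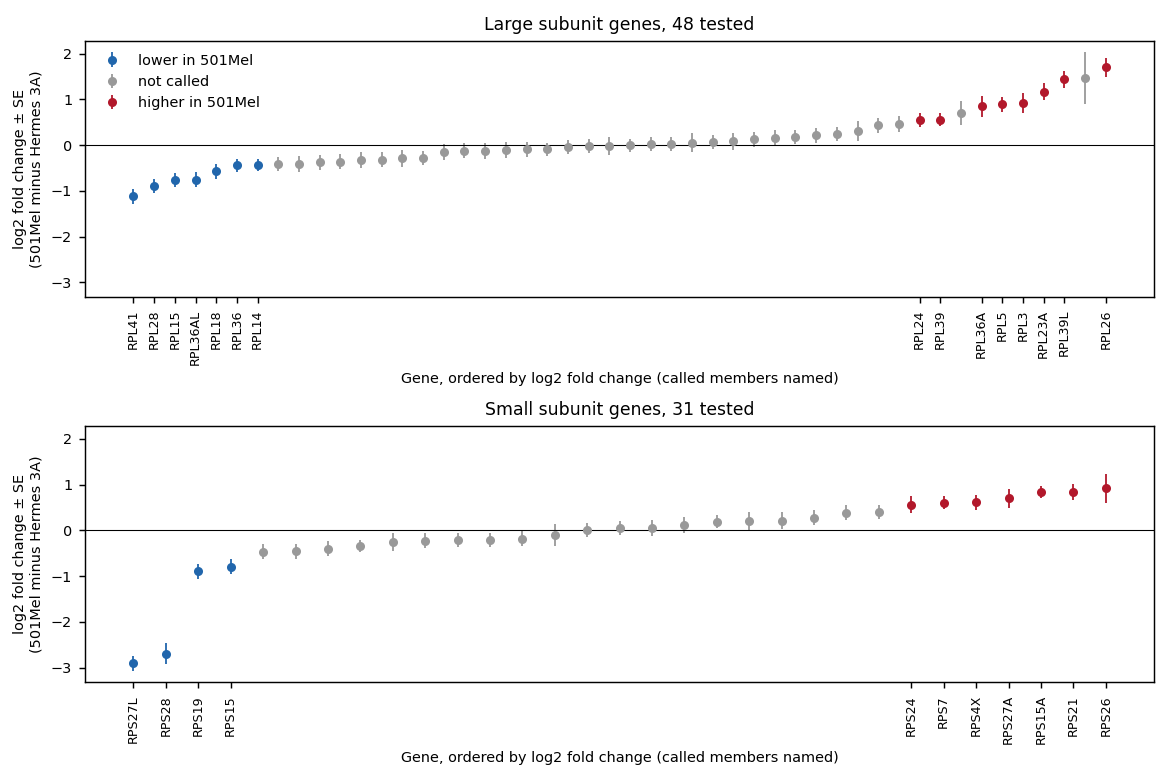
Log2 fold change with its standard error for each of the 79 tested members, large subunit above and small subunit below, ordered by size, with the called members named on the axis. Blue members passed the test as lower and red ones as higher in 501Mel cells, and grey members did not pass. RPS27L and RPS28 lie below -2.5, and RPL26 is the highest at 1.71.

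Only 6 of the 26 called members differed at least 2-fold, RPS27L, RPS28 and RPL41 being lower and RPL26, RPL39L and RPL23A higher in 501Mel cells. Of all genes tested, 34.3% passed with a 2-fold difference, 17.2% higher and 17.1% lower.

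RPS27L, a paralogue of RPS27, was the member that differed most. It lies on the minus strand at chr15:63125872-63158021 (GENCODE 29, GRCh38). Its level was 36.5 and 31.5 CPM in 501Mel cells and 219, 270.0 and 243 CPM in Hermes 3A cells, and the groups lay far apart. This was a log2 fold change of -2.91 ± 0.16 (SE), or 7.52-fold lower, with an edgeR adjusted p of 3.4e-05. It has no pseudogene under its name in the tables, and 2.32% of the 50-base windows of its transcript occur in another gene. RPS27, which has a zinc finger and sits in the small subunit, had 116 and 115 CPM in 501Mel cells and 127, 141 and 149 CPM in Hermes 3A cells, with a log2 fold change of -0.33 ± 0.13 (adjusted p = 0.0673).

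RPS28, a small protein near the mRNA exit of the small subunit, was at a low level in both lines. It had 2.76 and 2.98 CPM in 501Mel cells and 17.6, 17.3 and 18.2 CPM in Hermes 3A cells, and the groups did not overlap. The log2 fold change was -2.69 ± 0.24 (6.47-fold lower, adjusted p = 0.000204). Many counts of this family lay on a pseudogene. The processed pseudogene RPS28P7 (chr11:82689559-82689768, GRCh38) held 1188 and 985 counts in 501Mel cells against 796, 752 and 554 in Hermes 3A cells, which was 90.4% and 51.4% of the counts of the gene and its pseudogene together. With the pseudogene added to the parent the log2 fold change was -0.35 and no longer passed (adjusted p = 0.0941). Exons of RPS28 also lie opposite to those of AC010323.1, which had 1169 and 896 counts in 501Mel cells against 2100, 1729 and 1359 in Hermes 3A cells, and it is not stated that counting used the strand.

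The other small subunit members lower in 501Mel cells were RPS19 and RPS15. RPS19 (chr19:41859918-41872926), needed for maturation of 18S rRNA and often mutated in Diamond-Blackfan anaemia, had 642 and 576 CPM in 501Mel cells and 984, 1102 and 1149 CPM in Hermes 3A cells. All 3 melanocyte libraries lay above both melanoma libraries, with a log2 fold change of -0.89 ± 0.16 (adjusted p = 0.00398). Only 0.563% of its windows are shared with another gene. RPS15, a protein of the head of the small subunit, had 124 and 122 CPM in 501Mel cells and 227, 178 and 202 CPM in Hermes 3A cells, a log2 fold change of -0.79 ± 0.17 (adjusted p = 0.00771).

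In the large subunit, RPL41 (chr12:56116586-56117943), the smallest ribosomal protein, was lower in 501Mel cells, with 162 and 127 CPM in 501Mel cells and 296, 288 and 310.3 CPM in Hermes 3A cells. The 2 groups were separate and the log2 fold change was -1.12 ± 0.16 (adjusted p = 0.00152). RPL28, a eukaryote-specific protein of the large subunit, had 388 and 375 CPM in 501Mel cells and 594, 692 and 748 CPM in Hermes 3A cells (log2 fold change -0.90 ± 0.16, adjusted p = 0.0035). RPL15, which joins the large subunit early in its assembly, had 332 and 366 CPM in 501Mel cells and 563, 553 and 576 CPM in Hermes 3A cells (log2 fold change -0.76 ± 0.15, adjusted p = 0.00546). Both were lower in each 501Mel library than in each Hermes 3A library. RPL36AL, RPL18, RPL36 and RPL14 were also called lower, with smaller differences. RPL18 had 464 and 458 CPM in 501Mel cells and 634, 620.3 and 709 CPM in Hermes 3A cells (log2 fold change -0.58 ± 0.15, adjusted p = 0.0187). For RPL36 the values were 349.6 and 326 against 409, 424 and 478 CPM in the same order (log2 fold change -0.44 ± 0.15, adjusted p = 0.0421). RPL14 had 209 and 215 against 282, 271 and 265 CPM, and its log2 fold change of -0.43 ± 0.14 was the smallest decrease called (adjusted p = 0.0353).

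Among the higher members, RPL26 (chr17:8377516-8383250), which sits near the exit of the tunnel, had 339.8 and 254 CPM in 501Mel cells and 103, 77.0 and 78.8 CPM in Hermes 3A cells. No Hermes 3A library reached the 501Mel range, and the log2 fold change was 1.71 ± 0.21 (3.26-fold higher, adjusted p = 0.000756). Its exons share 360 bases on the same strand with AC135178.2, a gene listed only for Hermes 3A cells with 4, 2 and 2 counts. The part of this overlap in the difference was not tested. Over the genome, the 141 tested genes that overlap a same-strand gene listed only for Hermes 3A cells had a median log2 fold change of -0.13, with 31.2% higher and 32.6% lower. Of the 17276 tested genes that overlap no gene listed for 1 line only, 24.1% were higher and 23.8% lower, with a median of 0.03. RPL23A (chr17:28719393-28724359), a docking site of the signal recognition particle at the tunnel exit, had 115 and 132 CPM in 501Mel cells and 60.8, 52.7 and 43.1 CPM in Hermes 3A cells (log2 fold change 1.17 ± 0.19, adjusted p = 0.00238). With its pseudogenes added, of which RPL23AP82 held most of the counts, this became 0.67 (adjusted p = 0.0150).

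RPL3 and RPL5 were among the most abundant members that differed. RPL3 (chr22:39312882-39320389), which reaches into the peptidyl transferase centre, had 1207 and 985 CPM in 501Mel cells and 672, 502 and 468 CPM in Hermes 3A cells. Both 501Mel libraries lay above the 3 of Hermes 3A, and the log2 fold change was 0.92 ± 0.22 (adjusted p = 0.0125). RPL5 (chr1:92831983-92841924) had 1080.4 and 957 CPM in 501Mel cells and 553, 480.3 and 533 CPM in Hermes 3A cells, with a log2 fold change of 0.89 ± 0.17 (adjusted p = 0.00437). RPL11, the partner of RPL5 in the 5S particle, had 1278 and 1133 CPM in 501Mel cells and 842, 805 and 905 CPM in Hermes 3A cells. Its groups did not overlap either, but its log2 fold change of 0.43 ± 0.16 did not pass (adjusted p = 0.065). All of these but RPL11 were called. RPL24, which forms a bridge between the subunits, had 440.4 and 413 CPM in 501Mel cells and 285, 259.6 and 287 CPM in Hermes 3A cells (log2 fold change 0.55 ± 0.14, adjusted p = 0.017).

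In the small subunit, RPS26, RPS21, RPS15A and RPS27A were higher in 501Mel cells. RPS21 had 529.6 and 438 CPM in 501Mel cells and 256, 231 and 285 CPM in Hermes 3A cells (log2 fold change 0.84 ± 0.17, adjusted p = 0.0056). RPS15A had 320.0 and 293 CPM in 501Mel cells and 163, 159.8 and 169 CPM in Hermes 3A cells (log2 fold change 0.83 ± 0.13, adjusted p = 0.00223). RPS27A, which is translated as a fusion with ubiquitin, had 295 and 224 CPM in 501Mel cells and 182, 133 and 138 CPM in Hermes 3A cells (log2 fold change 0.70 ± 0.21, adjusted p = 0.0277). For each of these 3 genes the lowest 501Mel library was above the highest of Hermes 3A. RPS26, which contacts the mRNA upstream of the start codon, was at a low level, with 14.1 and 10.8 CPM in 501Mel cells and 7.47, 6.74 and 4.49 CPM in Hermes 3A cells (log2 fold change 0.92 ± 0.31, adjusted p = 0.0426). RPS4X, encoded on the X chromosome, had 1187 and 1009 CPM in 501Mel cells and 688, 647 and 708 CPM in Hermes 3A cells (log2 fold change 0.62 ± 0.16, adjusted p = 0.018). RPS7, which can bind MDM2, had 289.5 and 250.4 CPM in 501Mel cells and 157, 161 and 189 CPM in Hermes 3A cells (log2 fold change 0.61 ± 0.15, adjusted p = 0.0127). These 3 also had separate groups. RPS24, another gene of Diamond-Blackfan anaemia, had 692 and 563 CPM in 501Mel cells and 453, 357 and 398 CPM in Hermes 3A cells (log2 fold change 0.56 ± 0.19, adjusted p = 0.0405), and its groups were separate as well.

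**Figure D3:**
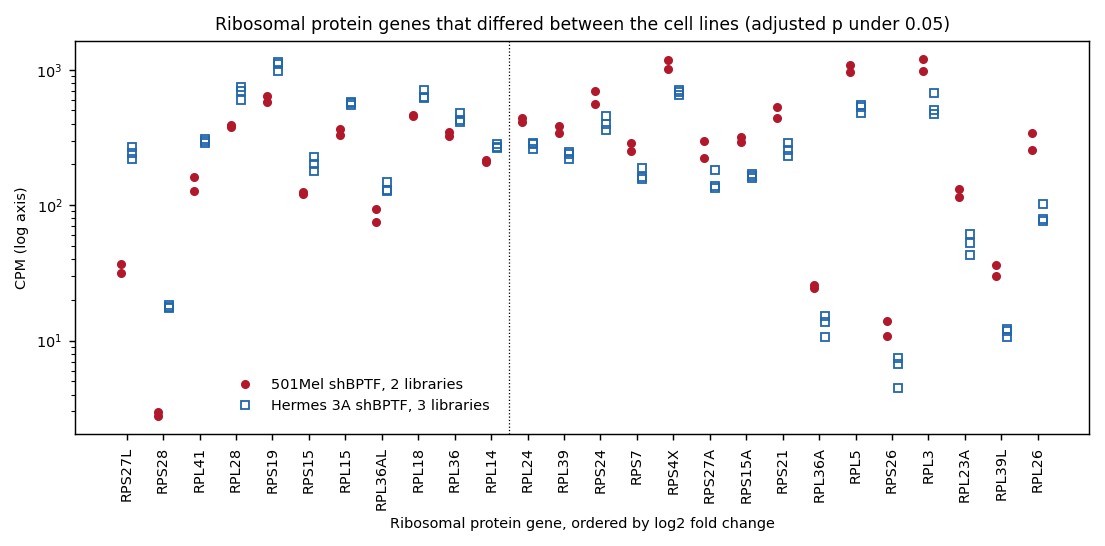
CPM on a log axis of the 26 called members in each library, filled red circles for the 2 libraries of 501Mel cells and open blue squares for the 3 of Hermes 3A cells, ordered by log2 fold change. Left of the dotted line both red circles lie below the squares for all 11 genes, and right of it both lie above them for all 15 genes.

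The calls differed in how far they rested on single libraries. Of the 26 called members, 12 were called under every alternative run other than the 2-fold threshold, namely RPL15, RPL23A, RPL26, RPL28, RPL39L, RPL41, RPL5, RPS15, RPS15A, RPS19, RPS21 and RPS27L. Without 501Mel replicate 1, 7 members were called higher and 8 lower, and without 501Mel replicate 2, 10 higher and 7 lower. Leaving out Hermes 3A replicate 1 gave 17 higher and 12 lower, replicate 2 gave 6 and 11, and replicate 3 gave 7 and 8. RPL14, RPL24, RPL36, RPL36A, RPS24 and RPS26 lost their call without any one of 4 libraries, that is without either 501Mel library, Hermes 3A replicate 2 or Hermes 3A replicate 3. RPL3, RPS27A and RPS4X lost it without 501Mel replicate 1, Hermes 3A replicate 2 or Hermes 3A replicate 3, and RPS7 without the first 2 of these. RPL18 lost it without either 501Mel library or Hermes 3A replicate 3, RPL39 without 501Mel replicate 2, Hermes 3A replicate 2 or Hermes 3A replicate 3, and RPL36AL without 501Mel replicate 2. The adjusted p of members that lost a call in this way was between 0.0559 and 0.206, and no called member changed direction under any alternative. Where RPL26, RPL23A and RPL3, whose exons overlap genes listed for 1 line only, were left out together with RPL23 and RPS9, 12 of 74 members were higher and 11 lower, an alternative chosen after the data were seen.

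The stalk proteins, which recruit elongation factors to the large subunit, did not pass the test. RPLP0 had 872 and 712 CPM in 501Mel cells and 636, 650.0 and 736 CPM in Hermes 3A cells, with a log2 fold change of 0.16 ± 0.17 (adjusted p = 0.453). RPLP1 had 737 and 559 CPM in 501Mel cells and 618, 548 and 574 CPM in Hermes 3A cells (0.09 ± 0.18, adjusted p = 0.721). RPLP2 had 419 and 432 CPM in 501Mel cells and 482, 393 and 417 CPM in Hermes 3A cells (-0.09 ± 0.17, adjusted p = 0.684). The ranges of the 2 lines overlapped for all 3 genes. RPS6, the substrate of the S6 kinases, had 1201 and 1249.5 CPM in 501Mel cells and 1198, 910.3 and 938 CPM in Hermes 3A cells (0.20 ± 0.20, adjusted p = 0.46). Its highest Hermes 3A library came close to both of 501Mel and the gene was not called. RPSA, also known as the laminin receptor, had 191 and 166 CPM in 501Mel cells and 178, 152 and 161 CPM in Hermes 3A cells (0.05 ± 0.15, adjusted p = 0.806).

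Several members have a paralogue within the family. RPL39L, known for its high level in testis, had 36.1 and 30.0 CPM in 501Mel cells and 12.1, 11.8 and 10.7 CPM in Hermes 3A cells, and all libraries of 501Mel were above those of Hermes 3A (log2 fold change 1.45 ± 0.19, adjusted p = 0.000967). RPL39, which lines the exit tunnel, had 343 and 385 CPM in 501Mel cells and 219.8, 246 and 241 CPM in Hermes 3A cells (0.56 ± 0.14, adjusted p = 0.0127). Per kb of transcript, RPL39L stood at 5.64% and 4.17% of RPL39 in 501Mel cells, against 2.94%, 2.57% and 2.38% in Hermes 3A cells. RPL36A and RPL36AL, which encode nearly the same protein, differed in opposite directions. RPL36A had 24.3 and 25.8 CPM in 501Mel cells and 15.2, 13.7 and 10.7 CPM in Hermes 3A cells (log2 fold change 0.85 ± 0.22, adjusted p = 0.0171). RPL36AL had 93.4 and 74.8 CPM in 501Mel cells and 148, 128 and 128 CPM in Hermes 3A cells (log2 fold change -0.75 ± 0.17, adjusted p = 0.00897). The levels per kb of RPL36AL were between 269% and 356% of those of RPL36A in 501Mel cells and between 869.7% and 1107% in Hermes 3A cells. Of the 50-base windows of RPL36A, 71.6% are found in another gene, and their part in its values was not tested.

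RPS27L amounted to 13.9% and 12.2% of RPS27 per kb in 501Mel cells, against 76.9%, 85.0% and 72.6% in Hermes 3A cells. RPL3L, a paralogue of RPL3 found in muscle, was close to the detection limit with 19 and 17 counts in 501Mel cells against 3, 8 and 6 in Hermes 3A cells, and its log2 fold change of 1.47 ± 0.56 did not pass (adjusted p = 0.0665). Per kb it was under 0.05% of RPL3 in all 5 libraries. RPL10L, an intronless and testis-expressed copy of RPL10, had 2 and 6 counts in 501Mel cells and 0 in each Hermes 3A library, and was not tested. RPL10, which is added late in assembly of the large subunit, had 374 and 365 CPM in 501Mel cells and 332, 283 and 316 CPM in Hermes 3A cells (0.18 ± 0.15, adjusted p = 0.371). RPL7 and RPL7A are neighbours by name only and not paralogues. RPL7 had 28.2 and 23.7 CPM in 501Mel cells and 26.96, 20.6 and 23.5 CPM in Hermes 3A cells (0.06 ± 0.21, adjusted p = 0.839). RPL7A had 325 and 291 CPM in 501Mel cells and 372, 329.7 and 359 CPM in Hermes 3A cells (-0.27 ± 0.15, adjusted p = 0.176).

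Levels can be compared between genes only per length. Per kb of transcript (median length of the protein-coding transcripts of GENCODE 29), the median level of the 79 tested members was 572 CPM per kb in 501Mel cells and 548 CPM per kb in Hermes 3A cells. In each line 68 of the 79 lay within 4-fold of the median, 0 were over 4 times the median and 11 were more than 4-fold under it. With the union of all exons as the length, 62 and 61 lay within 4-fold. The libraries were treated with duplex-specific nuclease, which lowers abundant sequences, and its part in how closely these levels lay together was not tested. The levels per kb of the lines had a Spearman rho of 0.89 over the 79 genes, which is a description, since both lines share the gene lengths and the sequences. By CPM, which is not per length, the 5 highest members were RPL8, RPS6, RPL11, RPS18 and RPS3. RPL8 had 1129 and 1039 CPM in 501Mel cells and 1295, 1124 and 1357 CPM in Hermes 3A cells. RPS18 had 1259.7 and 1046 CPM in 501Mel cells and 789.7, 823 and 907 CPM in Hermes 3A cells. For RPS3, which lines the mRNA entry, the values were 1088 and 858 CPM in 501Mel cells and 895, 818 and 963 CPM in Hermes 3A cells. These 3 did not pass the test, with edgeR adjusted p of 0.228, 0.0949 and 0.831, and the order of the 5 highest differed between the lines. The 5 lowest tested were RPL3L, RPS26, RPS28, RPL21 and RPL36A.

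Shared sequence was common in the family. Of the 82 members, 81 have at least 1 window of 50 bases in their principal transcript that occurs in another gene, with a median of 24.5% of windows. The highest shares were 86.0% in RPL9, 83.4% in RPS3A and 79.2% in RPL6, and RPL38 had none. Over the 79 tested members the share of windows had a Spearman rho of -0.50 with the level per kb of 501Mel cells and -0.53 with that of Hermes 3A cells, where genes are not independent replicates. The share was taken over the principal transcript and the level over the median coding length, which can differ widely (6434 bases and 0.808 kb in RPS27L). A long principal transcript lowers the share, as in RPS23 with 226 shared windows but a share of 6.67%. The part of this choice in the rho and in the 20% cut was not tested. Of 9 members more than 4-fold under the median in both lines, 6 (RPS26, RPL21, RPL36A, RPL7 and RPL9 among them) shared at least 20% of their windows, against 46 of all 79. RPL9 had 31.6 and 30.5 CPM in 501Mel cells and 24.7, 26.6 and 23.7 CPM in Hermes 3A cells. It was not called. The other 3 (RPL3L, RPL39L and RPS28) had shares under 20%. For RPS28 the share of 12.6% stood for 161 shared windows in a principal transcript of 1326 bases. Most counts of its family lay on the pseudogene RPS28P7 in both lines. The part of this pseudogene in the low level of RPS28 was not tested. With the log2 fold change the share of windows had a rho of 0.07. Among the 33 members that shared under 20% of their windows, 3 were higher and 7 lower, with a median log2 fold change of -0.09, and among the 46 that shared more, 12 were higher and 4 lower, with a median of 0.05.

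Pseudogenes named after a member were numerous but held few counts. Of 842 listed for at least 1 line, 661 were listed for both, and together these took 1.36% and 1.13% of the counts of the family in 501Mel cells, against 0.729%, 0.799% and 0.675% in Hermes 3A cells. Both 501Mel libraries were above the Hermes 3A range, and the difference gave p = 0.2 in the exact two-sided permutation test, the smallest value possible. Over the tested members the median share of family counts on pseudogenes was 0.346%, and 7 exceeded 5%. Apart from RPS28 and RPL23A, the largest shares among tested members were 23.2% for RPL21 and 19.6% for RPL7. RPL21 had 12.8 and 13.2 CPM in 501Mel cells and 8.67, 7.94 and 6.19 CPM in Hermes 3A cells, with a log2 fold change of 0.70 ± 0.25 that did not pass (adjusted p = 0.0555). When its 47 listed pseudogenes were added, this became 0.83 and passed (adjusted p = 0.0242). For RPL7 the value with pseudogenes was 0.35 (adjusted p = 0.162). Over all members, adding pseudogenes gave 16 higher and 10 lower.

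RPL17 (chr18:49488453-49492523), which lies at the tunnel exit, was listed only for Hermes 3A cells, with 836, 703 and 450 counts, and was not tested. The read-through gene RPL17-C18orf32, which shares 611 exon bases with it on the same strand, had 5180 and 3407 counts in 501Mel cells against 20, 23 and 19 in Hermes 3A cells. No fold is given for RPL17, since the 2 lines were counted on different gene lists at this locus.

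The pyrimidine start was present on both sides of the comparison. Of the 11 members called lower, all had a promoter entry and 6 started with a C followed by at least 4 pyrimidines. Of the 15 called higher, 11 had an entry and 6 of these started so, and of the 41 members not called that had an entry, 30 did. RPS27L, RPS28 and RPL15 among the lower members, and RPS4X, RPS26 and RPS27A among the higher ones, had no C at the annotated start. In RPS15, RPL36AL, RPL3 and RPS7 a C at the start was followed by fewer than 4 pyrimidines. The wider measure, a run of at least 6 that began with C within 10 bases of the start, was met by RPS28, RPS27A, RPS15, RPL36AL and RPS7. It was not met by RPS27L, RPL15, RPS4X, RPS26 and RPL3.

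Genes linked to the ribosome outside the rule were taken from 7 lists. Of 6 ribosomal proteins and ribosomal protein paralogues with other names, 1 was higher, 2 were lower and 3 did not pass. The called share was 50%, against 48.2% of all genes, and the median log2 fold change was -0.39. FAU, a fusion of a ubiquitin-like protein with RPS30, had 147 and 129.6 CPM in 501Mel cells and 208, 173 and 197 CPM in Hermes 3A cells (-0.55 ± 0.16, adjusted p = 0.0257). RPL7L1, a nucleolar relative of RPL7, was higher with 219.9 and 178 CPM in 501Mel cells and 127, 131 and 140.4 CPM in Hermes 3A cells (0.51 ± 0.14, adjusted p = 0.0215). None of the 6 was called without 501Mel replicate 1 or without Hermes 3A replicate 3, the 2 lower calls were lost without 501Mel replicate 2, and the higher call was lost without Hermes 3A replicate 2.

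Most of the called ribosome biogenesis factors were higher in 501Mel cells. Of 71 tested, 44 were higher, 2 lower and 25 did not pass (64.8% called, against 48.2% of all genes), with a median log2 fold change of 0.74. Their summed level was between 10160.4 and 12245 CPM in 501Mel cells and between 5316 and 6565 CPM in Hermes 3A cells. NOP58, a core protein of box C/D snoRNPs, had 261 and 203 CPM in 501Mel cells and 51.2, 35.6 and 32.2 CPM in Hermes 3A cells (2.47 ± 0.24, adjusted p = 0.000331). DDX21, a nucleolar RNA helicase, had 684 and 448 CPM in 501Mel cells and 186, 149 and 145 CPM in Hermes 3A cells (1.74 ± 0.22, adjusted p = 0.000933). The 2 lower genes were SBDS, which matures the large subunit by releasing eIF6, with 55.9 and 59.4 CPM in 501Mel cells and 97.9, 99.9 and 93.0 CPM in Hermes 3A cells (-0.82 ± 0.13, adjusted p = 0.00249), and NOP10 of the box H/ACA snoRNPs, with 63.7 and 53.7 CPM in 501Mel cells and 125, 87.6 and 86.1 CPM in Hermes 3A cells (-0.84 ± 0.23, adjusted p = 0.0185). The number of higher genes was between 28 and 52 over the alternatives and the median between 0.62 and 0.87. The lowest number came without 501Mel replicate 1, and 29 and 30 were higher without Hermes 3A replicates 2 and 3.

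Of 47 translation initiation and elongation factors tested, 19 were higher, 3 lower and 25 did not pass. The called share was 46.8%, near the 48.2% of all genes, and the median log2 fold change was 0.32. EIF5B, which joins the subunits, had 266 and 140.1 CPM in 501Mel cells and 78.8, 61.6 and 45.1 CPM in Hermes 3A cells (1.63 ± 0.32, adjusted p = 0.00529). EIF3F, a subunit of the initiation factor eIF3, had 109 and 119 CPM in 501Mel cells and 180.1, 184 and 195 CPM in Hermes 3A cells (-0.78 ± 0.13, adjusted p = 0.00321), and EEF1D of the elongation factor eEF1B had 162 and 153 CPM in 501Mel cells and 225, 211 and 212 CPM in Hermes 3A cells (-0.53 ± 0.14, adjusted p = 0.0166). EIF4A1, the helicase of the cap-binding complex, had 815 and 758 CPM in 501Mel cells and 15.4, 21.9 and 12.5 CPM in Hermes 3A cells (5.50 ± 0.25, adjusted p = 1.9e-05). Its exons overlap on the same strand AC016876.2, listed only for Hermes 3A cells with 21, 43 and 23 counts, and the part of the gene list in this difference was not tested. Higher calls numbered 11 and 12 without 501Mel replicates 1 and 2, and 9 without either Hermes 3A replicate 2 or 3. The median was 0.11 without 501Mel replicate 1, 0.13 without Hermes 3A replicate 3 and 0.18 with the replicate number as a block in the fit (the replicate block).

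Of 21 genes that control ribosomal protein mRNA translation or link the ribosome to MDM2, 3 were higher, 8 lower and 10 did not pass. The called share was 52.4%, against 48.2% of all genes. MDM2, the ubiquitin ligase that RPL5 and RPL11 inhibit, had 72.4 and 42.6 CPM in 501Mel cells and 290.0, 374 and 436 CPM in Hermes 3A cells (-2.74 ± 0.28, adjusted p = 0.000379). CDKN1A, an inhibitor of cyclin-dependent kinases, had 0 counts in both 501Mel libraries and 33363, 31620 and 34023 in those of Hermes 3A, which is at least 12052-fold lower with 3 counts per library as the floor. The lines were counted on different gene lists, and the part of this in the counts of CDKN1A was not tested. MDM4, the partner of MDM2, was higher with 55.0 and 63.9 CPM in 501Mel cells and 23.5, 35.1 and 19.6 CPM in Hermes 3A cells (1.13 ± 0.24, adjusted p = 0.00769), as was MTOR, the kinase itself, with 192 and 187 CPM in 501Mel cells and 129, 122 and 124 CPM in Hermes 3A cells (0.53 ± 0.13, adjusted p = 0.0133). RPTOR (-0.50, edgeR adjusted p = 0.0295), MLST8 (-0.49, 0.0266) and AKT1S1 (-0.44, 0.0316) were lower. So were LARP1 (-0.49, 0.0302), RPS6KB2 (-0.52, 0.0369) and MAX (-0.65, 0.0122). LARP4B was higher (0.41, 0.0373), and RHEB, TSC1, TSC2, RPS6KB1, EIF4EBP1 and EIF4EBP2 did not pass. The median of this list was -0.32, also with CDKN1A at its bound, and it was -0.17 without either 501Mel library and -0.20 with the replicate block. Lower calls numbered 5 without 501Mel replicate 1, 2 without 501Mel replicate 2, 5 without Hermes 3A replicate 2 and 4 without Hermes 3A replicate 3, with 1 higher call in each of these 4 settings.

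Mitochondrial ribosomal proteins were called in both directions. Of 76 tested genes of the separate ribosome of mitochondria, 17 were higher, 10 lower and 49 did not pass. The called share was 35.5%, against 48.2% of all genes, and the median log2 fold change was 0.10. MRPL38 had 47.0 and 60.0 CPM in 501Mel cells and 6.10, 7.60 and 6.39 CPM in Hermes 3A cells (2.93 ± 0.19, adjusted p = 7.05e-05), where AC087289.3, listed only for Hermes 3A cells with 1, 2 and 0 counts, overlaps its exons on the same strand. MRPL35 had a log2 fold change of 1.10 ± 0.16 (adjusted p = 0.00156), MRPS36 one of -1.21 ± 0.20 (adjusted p = 0.00241) and MRPL54 one of -1.21 ± 0.20 (adjusted p = 0.00257). Higher calls of this list numbered 11 (and lower calls 6) without 501Mel replicate 1, 26 without Hermes 3A replicate 1 and 10 without Hermes 3A replicate 2 or 3. The median was 0.22 without Hermes 3A replicate 1, -0.015 without replicate 2, which turned its direction, and 0.0040 without replicate 3. Of 9 ribosomal S6 kinases tested, 2 were higher, 3 lower and 4 did not pass (55.6% called, against 48.2% of all genes). RPS6KA1 was higher (0.97 ± 0.14, adjusted p = 0.00176), as was RPS6KC1 (0.65 ± 0.19, adjusted p = 0.0283), and RPS6KA2 (-2.50 ± 0.26, adjusted p = 0.000403) and RPS6KA4 (-0.75 ± 0.18, adjusted p = 0.0128) were lower. Without 501Mel replicate 2, 1 of these kinases was higher and 1 lower. Without 501Mel replicate 1 or Hermes 3A replicate 2, 1 was higher and 2 were lower, and without Hermes 3A replicate 3, 1 was higher. Of 11 snoRNA host genes without a long reading frame, which like ribosomal protein genes often start with a pyrimidine run, 3 were higher, 1 lower and 7 did not pass. The called share was 36.4%, against 48.2% of all genes. SNHG1 (1.09 ± 0.28, adjusted p = 0.0163) and SNHG6 (0.77 ± 0.13, adjusted p = 0.00323) were higher and SNHG7 (-0.95 ± 0.33, adjusted p = 0.0464) was lower. The lower call was lost without any one of the 501Mel libraries and of Hermes 3A replicates 2 and 3, and also with limma-voom, with library totals as the scaling and with the replicate block, and 1 gene was higher without 501Mel replicate 1 and 2 without Hermes 3A replicate 2.

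**Figure D4:**
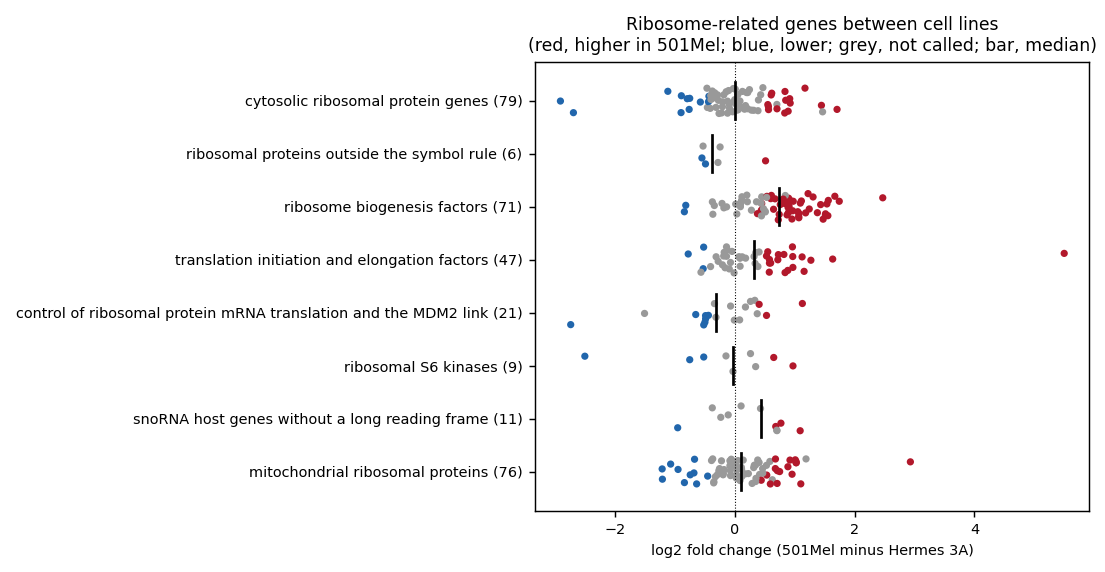
Log2 fold change between 501Mel and Hermes 3A cells (horizontal axis) of each tested gene in the cytosolic ribosomal protein group and in the 7 related lists (rows, number tested in brackets), with the median as a black bar. Red genes passed the test as higher and blue ones as lower in 501Mel cells. Biogenesis factors have a median of 0.74 and the cytosolic ribosomal protein genes one of 0.01. CDKN1A lies off the axis and is not drawn.

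The members also differed between libraries of 1 line. Over the 79 tested members, 59 were higher in 501Mel replicate 1 than in replicate 2, with a median log2 ratio of 0.12, where all tested genes over 1 CPM in both had one of 0.04. In Hermes 3A cells 59 members were higher in replicate 1 and 67 in replicate 3 than in replicate 2, with medians of 0.11 and 0.13 for the log2 ratio. No ratio over all genes was taken for Hermes 3A cells, where a shift of the whole library cannot be told apart from these. All of these ratios are of CPM without TMM scaling, and the share of all genes that went the same way was not taken.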

How the data were processed

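RNA-seq was performed on rRNA-depleted total RNA of 2 libraries of 501Mel shBPTF and 3 of Hermes 3A shBPTF cells, with normalization by duplex-specific nuclease. The values are raw counts per Ensembl gene, which the authors deposited as 1 table per library. Per the submitters' processing notes these came from CASAVA 1.8, TopHat 1.4.1 and Bowtie 0.12.7 on hg19. The counting program, the annotation release and the handling of reads with several hits are not given in the sources used here. The fragments of a gene and of its near-identical pseudogenes may therefore have been split.

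Genes listed for both lines were named with GENCODE 29 (GRCh38, whose coordinates are printed), filtered (filterByExpr), scaled (TMM) and tested with edgeR 4.0.16 in R 4.3.3 (quasi-likelihood F-test, Benjamini-Hochberg over all 17975 genes, threshold 0.05). The SE of a log2 fold change was its size divided by the square root of the F value of this test. Shares of libraries were compared with exact permutation tests (scipy 1.17.1). The script was tested on simulated data. Alternatives were other scaling (RLE, totals, TMM without members), no filter, pseudogene counts added, a 2-fold threshold, a replicate block, each library left out, DESeq2 1.42.0 and limma 3.58.1 (voom).

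The members and lists were chosen with earlier results of these data known. Named members were the 10 called with the largest change in each direction, the 5 highest and 5 lowest by mean CPM, those not tested, paralogue pairs, the 5 with the largest pseudogene share and a few of known role, and for other lists the 2 called with the largest change in each direction. Other members and list genes named were called by the test or singled out after their values were seen. Some genes are not reported here by name.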

Additional observations from a re-analysis of the deposited data

How the results depend on the processing

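With a 2-fold difference required, 3 members were higher and 3 lower. Leaving out 1 library gave between 6 and 17 members higher and between 7 and 12 lower, a median log2 fold change between -0.11 and 0.064, a difference in the share of counts between 0.0320 and 0.369 percentage points, between 6059 and 9282 genes called of all tested, and between 68 and 137 genes called over the 7 related lists (117 with all libraries). Under the alternatives other than this 2-fold threshold, 14 of the 26 called members lost their call at least once and 0 changed direction. RPS24 lost it with RLE size factors (adjusted p = 0.0566), RPL36 with library totals (0.0632) and RPS28 with pseudogenes added (0.0941), and DESeq2 and limma-voom kept all 26 and added 6 each. No scaling moved the median of all genes by over 0.1. The groups share replicate numbers 1 and 2, for which the deviations from the group means of same-numbered libraries correlated at 0.102 and 0.115 over 17975 genes. With only 2 pairs, the numbers were not taken to pair the libraries. With the number as a replicate block, 10 members were higher and 8 lower, and 8 of the 26 lost their call (adjusted p between 0.0508 and 0.175). Lone libraries were assumed to vary like those of the other group. The cause of these changes was not tested. At these depths, RPL10L, with a few counts, could not be tested.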
